A study of Mus musculus with 6 samples.

Results

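Jun, Jund, Atf3, Ier2, Ier5, Egr2 and Nr4a2 are immediate-early genes, and they were followed in mouse CD8+ T cells given daunorubicin. Their rows were found by matching the RefSeq accessions of the deposited table to these gene symbols. That gave 11 rows of 1037, which hold 7 distinct profiles, 1 for each of the 7 genes, out of 847 genes matched in the whole table. Jund stands in 4 rows with identical values and Egr2 in 2, and each was counted once among the 7 genes.

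The cells were primary CD8+ T cells from the spleen of wildtype mice, kept in complete RPMI 1640 medium. Treatment lasted 2 h and was either daunorubicin (DNR), an anthracycline drug that traps topoisomerase II on DNA, or its solvent dimethyl sulfoxide (DMSO). Each group had 3 samples, called biological replicates in the labels. Nothing ties them to separate mice, so p-values measure the spread between these samples, which may be technical. Library preparation used the SMARTER mRNA-Seq kit on total RNA, per the labels' protocols. The series concerns T cell activation, but the labels do not say whether these cells had been stimulated, nor the age and strain of the mice.

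Immediate-early genes are switched on within minutes of a signal, without new protein synthesis, through MAP kinases and factors such as SRF and CREB that already sit in the cell. Jun, JunD and ATF3 are leucine-zipper proteins of the AP-1 family, which bind DNA as dimers. In T cells AP-1 works with NFAT at cytokine genes after the antigen receptor is engaged. EGR2 and the NR4A receptors are induced by the same receptor and are known for restraining T cell responses.

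The whole table limits what these genes can show. Of the 388 rows with enough signal to test, 99.7% passed the test in 1 direction or the other, 43.0% higher and 56.7% lower in DNR, and 99.7% had groups that did not overlap. The table is named as a heatmap matrix of DMSO against DNR, so rows that differ between the groups may have been picked to make it, and a passed test among the rows with enough signal sets no gene apart from the others. Over all 1037 rows, with no filter on low values, 242 passed as higher and 324 as lower. The table's FPKM summed to 13501 to 13669 in DMSO and 14023 to 14395 in DNR. The labelled cell type could not be checked, because 0 of 9 CD8 T cell markers, Cd8a and Cd3e among them, were among the matched genes. Of 11 monocyte, macrophage and neutrophil markers 2 were matched, Csf1r and Fcna, and their summed level was 58.5 to 63.2 FPKM in DMSO and 73.0 to 81.5 in DNR, with Fcna listed at 0 in every DMSO sample. Csf1r, the receptor for macrophage colony-stimulating factor, made up most of that sum. Its DMSO replicates 1 to 3 gave 63.2, 62.8 and 58.5 FPKM and its DNR replicates 69.6, 71.1 and 79.1 FPKM. Of 8 B cell markers 2 were matched, with sums of 0 to 2.27 FPKM in DMSO and 1.88 to 5.97 in DNR. The dendritic list had 1 of 5, Itgax, with sums of 0.96 to 1.23 and 1.14 to 1.51 FPKM. The Itgax sum joins a transcript row at 0 in every DNR sample and another at 0 in every DMSO sample. Spib, of the B cell list, had such rows too. A row at 0 therefore need not mean a gene at 0, which applies to Fcna as well. The lists for CD4 T cells (3 genes), natural killer cells (4) and erythroid cells and platelets (5) had 0 matched. The part of other cell types in the results below was not tested, and in bulk samples fewer cells of a type and less RNA per cell cannot be told apart.

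The sequences just before the transcription start are shown because these genes are known for signal-responsive promoters, and were taken from RefSeq promoter windows (GRCm38.p6). Windows were matched for 6 of the 7 genes, and in 4 of them the start lay within 10 bases of the GENCODE start of the listed transcript. For Jund and Nr4a2 the nearest window began 1210 and 8965 bases away, so theirs are not shown. The lines give the 150 bases before the start of Jun (chr4:95052223-95052372, minus strand), Ier5 (chr1:155099637-155099786, minus strand) and Atf3 (chr1:191183334-191183483, minus strand). For Egr2, which has other RefSeq starts upstream, 30 bases are shown, from 75 to 46 before the start (chr10:67537794-67537823, plus strand). All run 5′ to 3′ on the gene's strand, and capitals mark matches to the motifs named after them.
Jun: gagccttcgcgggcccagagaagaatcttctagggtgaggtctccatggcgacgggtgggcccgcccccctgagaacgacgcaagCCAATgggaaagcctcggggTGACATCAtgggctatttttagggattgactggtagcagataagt
Ier5: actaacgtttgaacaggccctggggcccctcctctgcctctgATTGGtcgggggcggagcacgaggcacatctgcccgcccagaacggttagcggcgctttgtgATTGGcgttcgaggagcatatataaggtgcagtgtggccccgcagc
Atf3: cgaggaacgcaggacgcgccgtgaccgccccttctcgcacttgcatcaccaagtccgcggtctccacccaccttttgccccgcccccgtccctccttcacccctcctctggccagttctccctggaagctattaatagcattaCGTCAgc
Egr2: agtCCATATATGGgcagcgaCGTCAcgggt

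The following short patterns were searched on both strands in the 250 bases before each start: TGANTCA (the AP-1 site), TGACNTCA (an AP-1 or CRE-like site), CGTCA (the core of the cyclic AMP response element, which overlaps the former when N is G), GCGNGGGCG (the Egr site), AAAGGTCA (the Nr4a site), CCAAT and the CArG box, which SRF binds. Jun held TGACATCA at 45 bases before the start, a match to TGACNTCA, which 7.49% of the 32851 windows in the RefSeq table hold. This site in the Jun promoter is known to bind AP-1 dimers that include Jun itself. Jun also held CCAAT at 65 bases, as 33.8% of windows do. Ier5 held CCAAT on the opposite strand at 108 and at 46 bases. Atf3 held CGTCA at 7 bases before the RefSeq start, inside the first exon in GENCODE, which starts 7 bases earlier. Egr2 held a CArG box, CCATATATGG, at 72 bases and CGTCA at 55 bases, and outside the stretch shown it held CGTCA and CCAAT on the opposite strand at 111 and 121 bases. TGANTCA, GCGNGGGCG and AAAGGTCA had 0 matches in the windows of these 4 genes, which says only that those letters are not there. A CArG box is in 1.47% of windows and CGTCA in 17.8%. These matches are descriptions of the letters and do not show that a factor was bound.

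Of the 7 genes, 6 rose in DNR and 1, Egr2, fell (limma, threshold 0.05 on the adjusted p), against 43.0% and 56.7% of all rows tested. Their median change was 0.27 on the log2(FPKM + 1) scale, against -0.22 for all rows tested. In FPKM the 6 rises were between 14.8% and 27.6%. All 7 passed the filter on low values with every sample above 20 FPKM, so none entered through 1 group alone.

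Jun, the founding subunit of AP-1 (chromosome 4, 95049036 to 95052222), measured 48.3, 51.2 and 48.7 FPKM in DMSO replicates 1 to 3. In DNR replicates 1 to 3 it measured 56.5, 67.1 and 65.4 FPKM. Its DNR samples all lay above its DMSO samples, and DNR replicate 1 lay closest to them. The mean went from 49.4 ± 1.53 to 63.0 ± 5.70 FPKM (SD, n = 3), 27.6% higher. On the log2 scale the change was 0.34 ± 0.07 (SE), with an adjusted p = 0.0037 by limma. This was the largest rise among the 7 genes with all samples as deposited. It ranked 111 of 388 among all rows tested, counted from the largest rise. The change of Nr4a2, 0.33, differed from it by less than its SE. Without DMSO replicate 1 the order was reversed, with Nr4a2 at 0.37 and Jun at 0.33.

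Jund (chromosome 8, 70697739 to 70700616) encodes JunD, an AP-1 subunit that many resting cells already express. The DMSO samples held 65.4, 64.2 and 61.3 FPKM and the DNR samples 69.9, 79.5 and 82.1 FPKM. The groups did not overlap, and DNR replicate 1 was 4.48 FPKM above the highest DMSO sample. The means were 63.6 ± 2.12 and 77.2 ± 6.44 FPKM (SD, n = 3). The log2 change was 0.27 ± 0.06 (SE), and limma gave an adjusted p = 0.0057.

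Atf3 (chromosome 1, 191170296 to 191183333), a gene induced by many cell stresses whose product can act as a repressor as well as an AP-1 partner, measured 65.7, 72.3 and 64.6 FPKM in DMSO. Under the drug it measured 77.2, 81.7 and 85.1 FPKM. All DNR samples were higher, by at least 4.90 FPKM, and the means differed by 20.4% (log2 change 0.27 ± 0.06 SE; limma, adjusted p = 0.0044). Jun and Jund kept the same order as Atf3 within each sample, with Atf3 highest, Jund next and Jun lowest in all 6 samples.

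Ier2 (chromosome 8, 84661331 to 84662852) encodes a small nuclear protein and had the highest level of the 7 genes in every sample. Its DMSO values were 103, 103 and 96.8 FPKM and its DNR values 109, 120.0 and 119 FPKM. This was the smallest change of the 7, a rise of 14.8% (log2 change 0.20 ± 0.05 SE; limma, adjusted p = 0.0060). With quantile normalization, which forces the same distribution on every sample, the change was 0.0075 (limma, adjusted p = 0.85).

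Ier5 (chromosome 1, 155096367 to 155099636), a relative of Ier2 whose product regulates the heat shock factor HSF1, measured 79.7, 78.6 and 75.7 FPKM in the solvent samples and 90.2, 102 and 97.0 FPKM in the DNR samples. The gap between the groups, 10.5 FPKM, was the widest of the 7 in FPKM. Ier5 also had the smallest adjusted p of the 7, 0.0021 by limma, for a log2 change of 0.30 ± 0.05 (SE). Quantile normalization lowered the change to 0.17 (limma, adjusted p = 0.011).

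Nr4a2 (chromosome 2, 57106830 to 57124003), which encodes the orphan nuclear receptor NURR1, measured 27.6, 26.1 and 24.4 FPKM in DMSO, against 30.9, 34.8 and 33.2 FPKM in DNR. Its groups did not overlap. The means were 26.0 ± 1.61 and 33.0 ± 1.92 FPKM (SD, n = 3), a difference of 26.6% (log2 change 0.33 ± 0.06 SE; limma, adjusted p = 0.0037). Its relatives Nr4a1 and Nr4a3 were not among the matched genes.

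Egr2 (chromosome 10, 67534469 to 67542188), a zinc finger factor induced by the T cell receptor, went the opposite way. The solvent samples measured 34.0, 31.5 and 35.5 FPKM and the DNR samples 28.9, 28.8 and 26.2 FPKM, with no overlap and a gap of 2.55 FPKM. The mean fell from 33.7 ± 2.03 to 28.0 ± 1.53 FPKM (SD, n = 3). The log2 change was -0.26 ± 0.06 (SE), at an adjusted p = 0.0062 by limma. Egr1 and Egr3 were not among the matched genes, so the direction of the family cannot be read from Egr2. Aligning the sample medians left Egr2 at a change of -0.073 (limma, adjusted p = 0.43). For each of the 7 genes alone, an exact two-sided permutation test of the FPKM gave p = 0.1, the smallest that 3 against 3 samples allow.

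**Figure D1:**
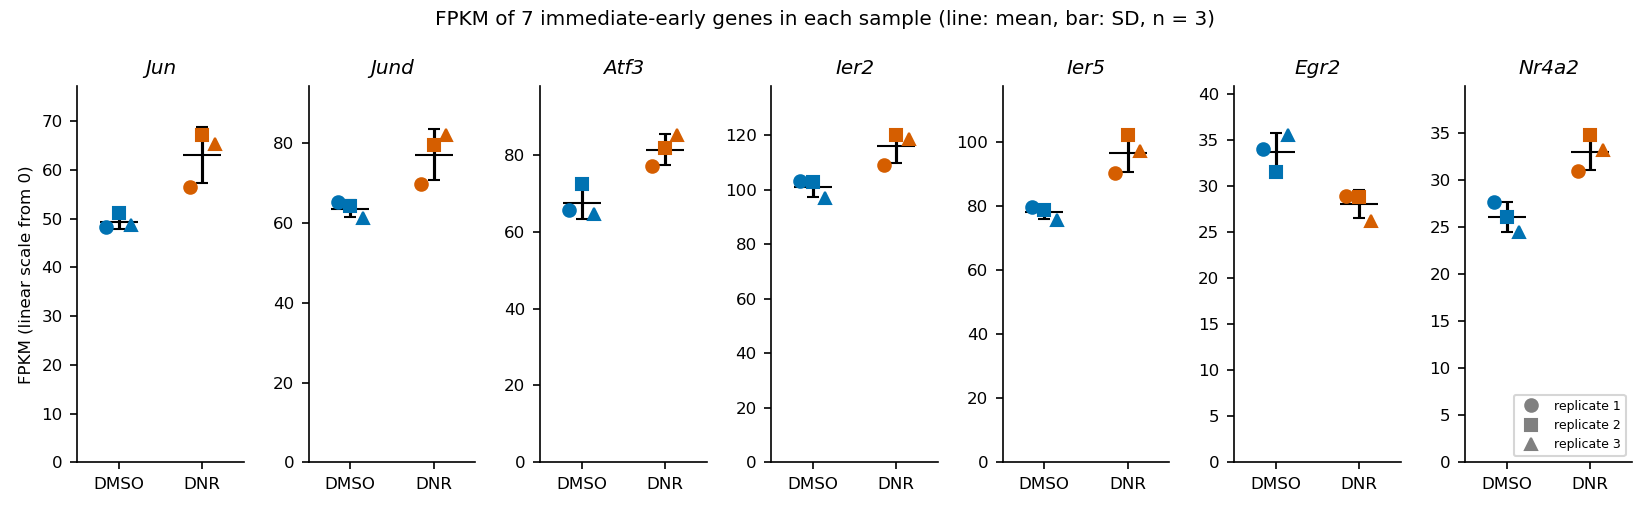
FPKM (vertical axis, from 0) of each gene in the 3 DMSO and 3 DNR samples, with the mean (line) and SD (bar) of each group and a marker shape for each replicate. The DNR samples lie above the DMSO samples for 6 genes and below them for Egr2, and DNR replicate 1 (circle) is the lowest DNR sample of each of those 6.

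DNR replicate 1 was the DNR sample with the lowest value for 6 of the 6 genes that rose, and the highest for Egr2. DMSO replicate 3 was the lowest DMSO sample for 5 of the 6, all but Jun. The share of other rows with DMSO replicate 3 lowest was not computed, so that count cannot be called particular to these genes. Among the 128 other rows that rose and were above 0 in every sample, DNR replicate 1 was the lowest DNR sample in 67, or 52.3%. Without DNR replicate 1 the change of Jun was 0.42 and that of Egr2 -0.28, and the calls stayed at 6 higher and 1 lower.

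Ratios within a sample do not change when a whole sample is multiplied by a factor, although quantile normalization does alter them. As deposited, all 6 ratios of Egr2 to another of these genes were lower in DNR. With quantile normalization the difference from Ier2 was smaller, with changes of -0.22 for Egr2 and 0.0075 for Ier2. Egr2 and Nr4a2 were the pair whose ratio crossed 1. The ratio of Egr2 to Nr4a2 was 1.23, 1.21 and 1.45 in DMSO replicates 1 to 3 and 0.94, 0.83 and 0.79 in DNR. Egr2 was thus above Nr4a2 in all 3 DMSO samples and below it in all 3 DNR samples. No other neighbours among the 7 changed places: in all 6 samples the order by FPKM was Ier2, Ier5, Atf3, Jund and Jun, with Egr2 and Nr4a2 last. Atf3 and Jund are neighbours in that order whose levels did not differ beyond their spread within a group, at 67.5 ± 4.15 and 63.6 ± 2.12 FPKM in DMSO and 81.3 ± 3.98 and 77.2 ± 6.44 FPKM in DNR. The ratio of Egr2 to Jun was 0.70, 0.62 and 0.73 in DMSO and 0.51, 0.43 and 0.40 in DNR, a log2 difference of -0.61. Against Ier2 the difference was the smallest of the 6, at -0.46, and against Jund, Atf3, Ier5 and Nr4a2 it was -0.54, -0.53, -0.57 and -0.61. None of the 6 ratios overlapped between groups, and each had an exact permutation p = 0.1 (two-sided; 0.1 after Benjamini-Hochberg over the 6), the smallest possible. Groups did not overlap in 99.7% of all rows tested. For Egr2 every DNR sample lay below every DMSO sample, and for each of the other 6 genes above. Lower ratios in DNR without overlap, and this p, follow from those values alone and are no further test. The 6 ratios also share the Egr2 values and so are not separate evidence.

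**Figure D2:**
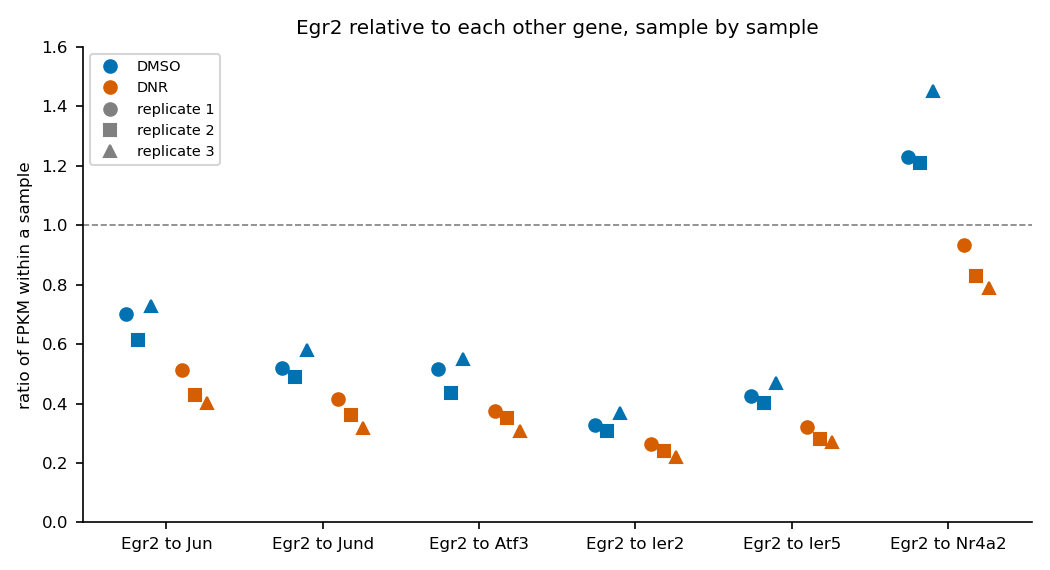
Ratio of Egr2 to each of the other 6 genes within a sample (vertical axis, ratio of FPKM; blue, DMSO; orange, DNR; shape, replicate; dashed line, a ratio of 1). Every DNR ratio lies below every DMSO ratio of the same pair, which the separated groups of the single genes fix in advance. Only the ratio to Nr4a2 crosses 1, from 1.21 to 1.45 in DMSO to 0.79 to 0.94 in DNR.

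Scaling changed the size of these values more than any other choice. Shifting the samples to a common median moved DNR up by 0.18 on the log2 scale relative to DMSO. The changes of Jun, Jund, Atf3, Ier2, Ier5 and Nr4a2 were then 0.53, 0.46, 0.45, 0.38, 0.49 and 0.51, all past the threshold. With quantile normalization those of Jun, Jund, Atf3 and Nr4a2 were 0.35, 0.23, 0.21 and 0.36, and that of Egr2 was -0.22, all past the threshold (limma). Both rescalings were estimated on the listed rows alone. Jun, Jund, Atf3, Ier5 and Nr4a2 therefore passed the threshold as higher under every scaling tried. Ier2 passed as higher under all but the quantile one, and Egr2 as lower under all but the common median. Their signs stayed the same there, with Ier2 at 0.0075 with quantile normalization and Egr2 at -0.073 with the common median.

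**Figure D3:**
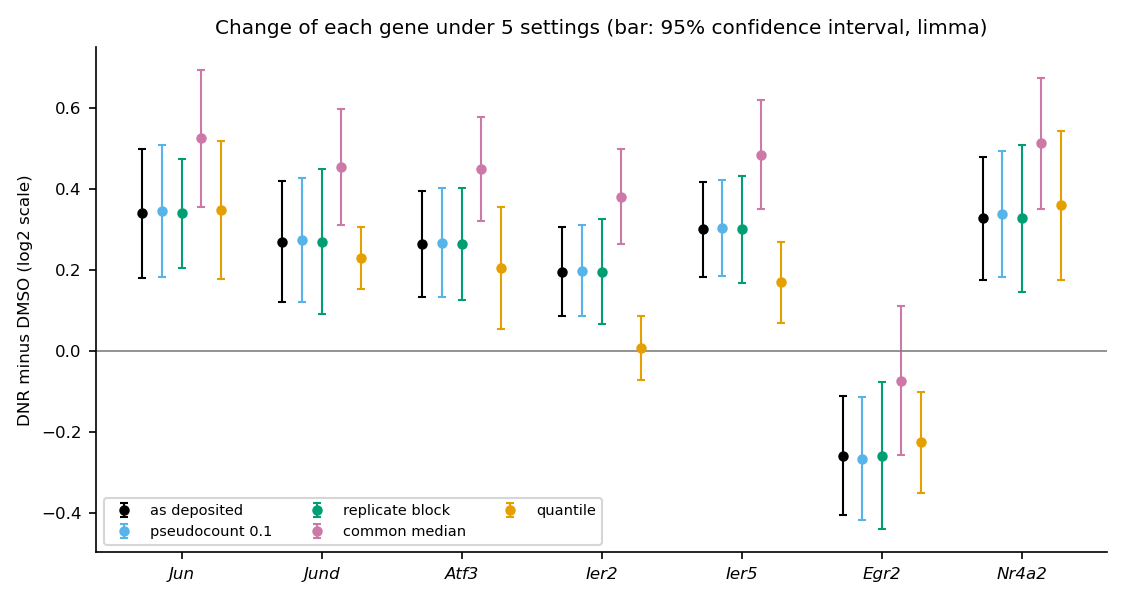
Change of each gene, DNR minus DMSO on the log2 scale (points), with its 95% confidence interval from limma (bars), for the values as deposited, a pseudocount of 0.1, a replicate block, samples shifted to a common median, and quantile normalization. The interval includes 0 for Ier2 with quantile normalization and for Egr2 with the common median, and for no other gene and setting drawn.

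The 7 genes are abundant within the table and changed by amounts that are usual at their level. Ier2, at a mean of 108 FPKM over all samples, ranked 22 of 388 by level, and Nr4a2, at 29.5 FPKM, ranked 98. The rows at a mean of 20 FPKM or more numbered 126, the 11 rows of the 7 genes included. Of these 126, 67 were higher and 59 lower in DNR, so 53.2% were higher, against 38.2% of the rows under 20 FPKM. The median change of the abundant rows was 0.25 among those that rose and -0.24 among those that fell. The median of the 6 rising immediate-early genes was 0.29, and the change of Egr2 was -0.26.

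**Figure D4:**
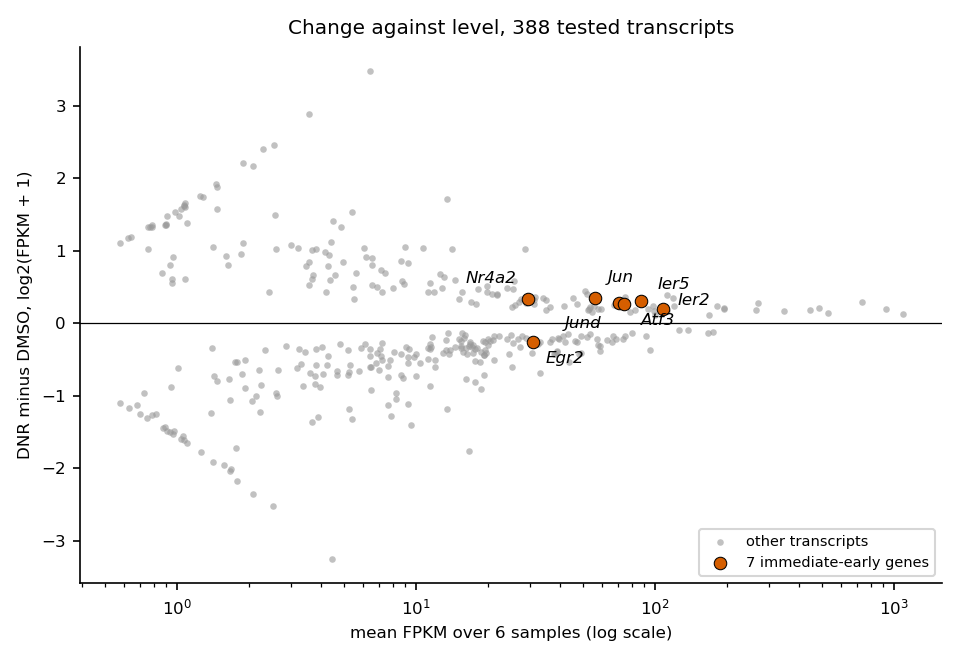
Change (vertical axis, DNR minus DMSO in log2(FPKM + 1)) against mean FPKM over 6 samples (horizontal, log scale) for the 388 rows tested, with the 7 immediate-early genes in orange. The 7 genes lie at 29.5 to 108 FPKM, among other rows with changes of like size.

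The 7 genes are short for this table. Their spans in RefSeq run from 1.5 kb for Ier2 to 17.2 kb for Nr4a2. Of the 377 tested rows with a span, 99 come from genes no longer than Nr4a2. The listed transcripts of Jund, Egr2 and Nr4a2 span 1.67, 4.32 and 8.21 kb in GENCODE, less than the whole genes in RefSeq. In GENCODE the listed transcripts of Jun, Jund, Ier2 and Ier5 have 1 exon and no intron, that of Egr2 has 2 exons, that of Atf3 4 and that of Nr4a2 8. Genes whose protein-coding transcripts all have a single exon were rare in the table, 7 of the 334 tested genes with a GENCODE match, or 2.10%, and 4 of these 7 are Jun, Jund, Ier2 and Ier5. Among the rest, Hexim1, an inhibitor of the elongation factor P-TEFb, rose by 0.35 and Kctd12 by 0.12 on the log2 scale (limma, adjusted p = 0.00041 and 0.0072).

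Gene span moved with direction across the table. Of the 99 rows from genes no longer than Nr4a2, the 11 rows of the 7 genes included, 76 were higher and 23 lower in DNR, so 76.8% were higher, with a median change of 0.27, the same as the median of the 7 genes. Of the 278 rows from longer genes, 30.9% were higher, with a median change of -0.32. The 6 that rose are thus read against 76.8% among genes of their span as well as against 43.0% overall. Level and span were each taken alone in these shares. Most other rows both at or above 20 FPKM and from genes no longer than Nr4a2 were higher too, so 6 rises among 7 such genes do not set them apart. The 2 identical rows of Egr2, at 7.72 kb, were among the 23 rows from such short genes that were lower. The part of gene span in these values was not tested.

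**Figure D5:**
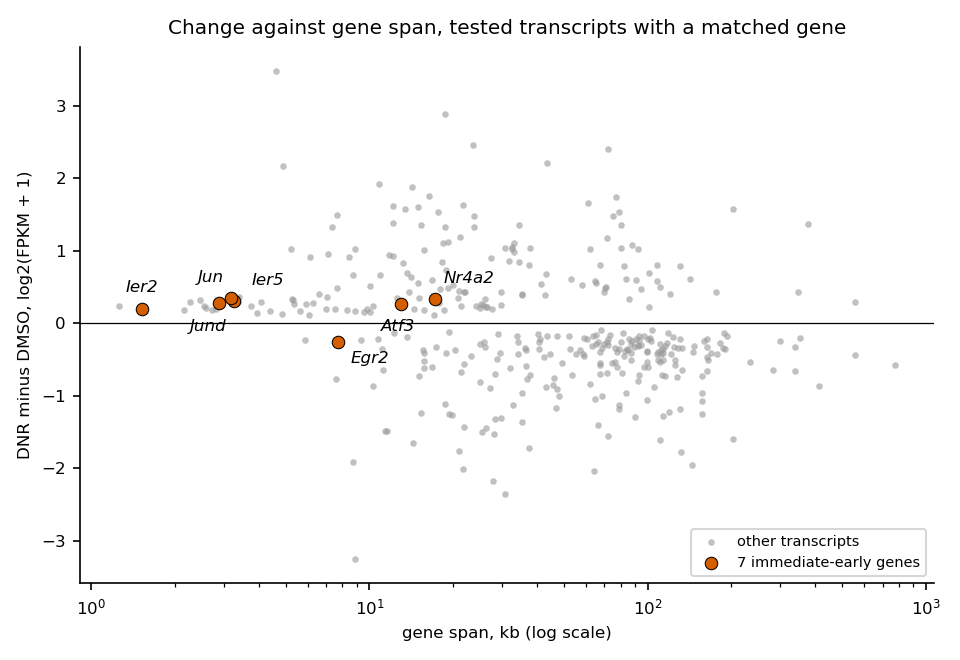
Change (vertical axis, DNR minus DMSO in log2(FPKM + 1)) against the span of the gene in RefSeq (horizontal, kb, log scale) for the tested rows with a matched gene, with the 7 immediate-early genes in orange. Rows of short genes lie mostly above 0 and rows of long genes mostly below it, and Egr2 lies below 0 at 7.72 kb.

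Other genes of the pathway were few. Of 118 genes listed as AP-1 subunits, Egr and Nr4a factors, other immediate-early genes, feedback regulators and upstream kinases and factors, 15 were matched and 14 had a tested row. Besides the 7 genes above, 3 rose and 4 fell, and Fos, Fosb, Junb, Myc, Dusp1 and Srf were not among the matched genes. In the AP-1 list of 20, Mafk, a small Maf partner of other leucine-zipper proteins, measured 3.92, 3.99 and 3.35 FPKM in DMSO but 2.70, 2.86 and 2.52 FPKM in DNR, the opposite direction to Jun, Jund and Atf3. Its change of -0.36 ± 0.12 (SE; limma, adjusted p = 0.017) did not pass without DMSO replicate 1 or without DMSO replicate 2 (limma, adjusted p = 0.054 and 0.052). A transcript of Atf2, a dimer partner of Jun, was listed at 0 in every DMSO sample and at 1.14, 2.12 and 0 FPKM in DNR, too low to test.

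Among other immediate-early genes, 5 of 41 had a tested row, and all 5 were higher as deposited: Ier2 and Ier5, counted above, and Klf4, Klf6 and Plk3. The share that was higher was 43.0% over all rows tested and 76.8% over rows of genes no longer than Nr4a2, as these 5 are. All 5 were also at or above a mean of 20 FPKM, where most rows of such short genes were higher. Klf4, a zinc finger factor linked to quiescence, measured 27.4, 29.3 and 27.8 FPKM in DMSO, against 31.0, 35.8 and 35.5 FPKM in DNR (log2 change 0.27 ± 0.06 SE; limma, adjusted p = 0.0063). Klf6 averaged 106 ± 0.74 FPKM in DMSO and 118 ± 1.19 in DNR (SD, n = 3). Its log2 change was 0.16 at an adjusted p = 0.0020 by limma, but with quantile normalization its change was -0.057 (limma, adjusted p = 0.056). The stress-responsive kinase gene Plk3 rose by 0.32 on the same scale.

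Of the 32 upstream genes listed 2 had a tested row, and of the 16 feedback genes 1; all 3 were lower as deposited. Over all rows tested 56.7% were lower, and among rows of genes longer than Nr4a2, as these 3 are, 191 of 278 were lower. Map3k1, a kinase at the head of the pathway that activates JNK and thereby Jun, went from 79.4 ± 5.11 to 68.2 ± 4.07 FPKM (SD, n = 3). Its log2 change was -0.22, with an adjusted p = 0.010 by limma. Mef2c, a calcium-responsive transcription factor gene, fell in all 3 tested rows, by 0.32, 0.47 and 0.66 on the log2 scale. Spred2, an inhibitor of the Ras to ERK pathway, fell from 9.35 ± 0.60 to 6.87 ± 0.36 FPKM, and limma put the log2 change at -0.39 with an adjusted p = 0.0057. With samples shifted to a common median Mafk, Map3k1, Spred2 and the most abundant Mef2c row did not pass (limma, adjusted p = 0.23, 0.72, 0.097 and 0.25), and that Mef2c row did not pass with quantile normalization either (limma, adjusted p = 0.18). Map3k1, Mef2c and Spred2 span 71.8, 163 and 99.6 kb, longer than any of the 7 genes.

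The genes most like Jun and Egr2 over the 6 samples were sought by the root mean square difference of log2(FPKM + 1), each gene taken relative to its own DMSO mean. This difference mostly follows the change between the groups, so genes with a like change come out near and those of opposite sign far. Nearest to Jun outside the 7 were Plk3, Klf4 and H3f3b, a gene of the histone variant H3.3, at differences of 0.055, 0.056 and 0.060. Their changes were 0.32, 0.27 and 0.29, against 0.34 for Jun. Within the 7, Ier5 was nearest to Jun, at 0.052, then Jund at 0.065 and Nr4a2 at 0.067, while Egr2 was at 0.44. Nearest to Egr2 were Nfatc3, Sp4 and Pde7a, at 0.025, 0.032 and 0.040, with changes of -0.26, -0.29 and -0.24. Those 3 genes span 69.8 to 88.2 kb, whereas Egr2 spans 7.72 kb. The median difference of all other rows tested was 0.51 from Jun and 0.38 from Egr2.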

How the data were processed

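RNA sequencing covered 3 DMSO and 3 DNR samples. Per the file headers the authors' values are FPKM; the deposited values are log2(FPKM + 1), since undoing that scale gave FPKM of 2 decimals in 100.0% of cells, within 1e-06. GRCm38 and mm10 are the builds named, per the submitters' processing notes. For the aligner, quantification program and rule that chose the rows, nothing is stated in the sources used here. FPKM carry no read totals, so depth is unknown and counting intervals were not computed. The O columns match the endings of the DMSO descriptions, and the D columns were given to DNR because every DMSO description had its column; each direction rests on this.

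Accessions were matched to RefSeq genes (GRCm38.p6), which gave 847 genes for 1013 of 1037 rows. The 388 rows at or above 1 FPKM in at least 3 samples were tested on the deposited log2(FPKM + 1) values with limma 3.58.1 in R 4.3.3 (mean-variance trend, treatment alone, two-sided, Benjamini-Hochberg over all rows tested, threshold 0.05). The design had assumed linear FPKM; its planned log2 with a pseudocount of 1 equals the deposited scale. The fit was tested on simulated data. Identical rows of a gene were counted once among the 7 genes, but were all kept in the 388 rows tested and in the shares over rows. The members and lists were chosen with earlier results of these data known. The text names the 7 members, listed pathway genes with a tested row, and the 3 genes nearest in pattern to Jun and to Egr2. Alternatives were another pseudocount, other filters, 2 rescalings, a replicate block, a fit without the trend, collapsed identical rows and leaving out each sample. Exons are from GENCODE M21 (GRCm38).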

Additional observations from a re-analysis of the deposited data

How the results depend on the processing

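The count of 6 genes higher and 1 lower held with a pseudocount of 0.1, without a filter, with a filter of 5 FPKM, without the trend, with identical rows collapsed and when any 1 of the 6 samples was left out (limma). Without each sample in turn, the change ranged from 0.29 to 0.42 for Jun and from -0.30 to -0.21 for Egr2. With samples shifted to a common median, 0 of the 7 genes were called lower (limma; also 0 at an unadjusted p under 0.05), because Egr2 was at -0.073, and 106 rows rather than 220 were lower, which made 61.2% of calls higher rather than 43.2%. With quantile normalization 46.6% of calls were higher, 5 of the 7 genes were higher, and Klf6 was at -0.057 (limma, adjusted p = 0.056). With a filter of 5 FPKM, which leaves 265 rows, 111 were higher rather than 167. Without a filter on low values, 242 of 1037 rows were higher and 324 lower. The labels give both groups the same replicate numbers. With a replicate block, 167 rows were higher and 218 lower, and 6 and 1 of the 7 genes; the deviations of same-numbered samples correlated at -0.055, 0.046 and 0.043, and not every sample correlated best with its own number, so the numbers were not treated as pairs. Depth is unknown, which leaves the counting error of low rows such as Mafk and Atf2 unknown as well.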
